A study of Rattus norvegicus with 22 samples.

Results

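The nucleus accumbens (NAc) of 5 rats that drank only water was described here from the number of RNA-seq reads counted for each gene. These were the libraries that the sample labels place in the water group of experiment 1, and they make up 5 of the 22 libraries of the series. All 5 came from adult male Wistar rats that were housed singly and received no EtOH and no gavage. The other 17 libraries came from rats that drank EtOH in the same experiment (5) and from rats of a second experiment that drank EtOH and were also given EtOH (6) or water (6) by gavage, so the water rats were the only animals of the series without EtOH. Each library held polyA+ RNA from the NAc core and shell from both sides of the brain of a single rat, prepared without keeping the strand of the transcript. The values therefore describe a mixture of cells, and reads over overlapping or antisense genes could not be told apart. In such bulk tissue fewer cells of a type and less RNA per cell cannot be told apart either.

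The NAc is the ventral part of the striatum. Most of its neurons are GABAergic spiny projection neurons, of which a first class carries the dopamine D1 receptor with the peptides dynorphin and substance P, and the other carries the D2 receptor with the adenosine receptor Adora2a and enkephalin. A small number of cholinergic and peptide-containing interneurons lie between them, while dopamine, serotonin and most glutamate reach the region in axons whose cell bodies lie elsewhere. The NAc is known for its part in reward and in the intake of alcohol and other drugs.

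The count files held 2962291 to 5247386 gene reads for a rat (median 3728561). Values are given as CPM, the count of a gene per 1000000 of these gene reads, where 1 read equalled 0.191 to 0.338 CPM depending on the rat. CPM is not corrected for transcript length, since no transcript lengths were used here, so a higher CPM of one gene than of another means a larger share of the reads and not more molecules. Alignments at more than 1 place were not counted, and they numbered 2.22 to 2.57 for each gene read. Several genes that nearly every cell uses were listed at or near 0, including Hprt1 and Hsp90aa1 at 0 in all 5 rats and Ppia at 0.381 ± 0.286 CPM (SD, n = 5), although Actb stood at 1213 ± 69.4 and Pgk1 at 303 ± 6.24 CPM. A value of 0 is therefore given as a listing and not as absence. Eif2s3y, a gene of the Y chromosome, had 109, 110.5, 106, 95.3 and 98.8 CPM in rats 1 to 5, which matched the label of male rats in every library. The log2 CPM values of any pair of rats differed by a root mean square of 0.242 (rats 2 and 3) to 0.379 (rats 1 and 5) over 8655 genes, and for every pair the counts differed by more than counting noise (chi-square of 3.07 to 8.17 per degree of freedom).

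Of 17310 listed gene symbols, 13708 had a read in at least 1 of the 5 rats and 11822 had a read in all 5. At least 1 CPM was reached in every rat by 11014 genes (63.6% of the listed symbols), at least 10 CPM by 8340, at least 100 CPM by 2227 and at least 1000 CPM by 74. The reads were spread over many genes. The 20 genes with the most reads held 5.51% of all gene reads, the first 100 held 15.9%, and 988 genes were needed to reach 50%.

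The 20 genes with the largest shares of the reads had mean levels of 1871 to 6258 CPM. The first was Scd2, a stearoyl-CoA desaturase that makes unsaturated fatty acids, at 6258 ± 518 CPM (SD, n = 5). It had 6968, 6605, 6030.2, 5678 and 6010.3 CPM in rats 1 to 5, so that its highest rat exceeded its lowest by 1.23-fold. Next came the myelin gene Mbp at 4508 ± 613 CPM, highest in rat 1 and lowest in rat 4. Zwint, which encodes a kinetochore protein that also binds the synaptic protein SNAP25, was at 3283 ± 69.8 CPM with a spread of only 1.05-fold from the lowest to the highest rat. Ndrg4 was at 3205 ± 442 CPM, and Cpe, the carboxypeptidase that trims neuropeptide precursors, at 2943 ± 77.6 CPM. Atp1b1, a beta subunit of the sodium pump, was at 1959 ± 48.1 CPM. The lipid carrier Apoe was at 2889.9 ± 304 CPM, and glutamine synthetase, Glul, which astrocytes use to recycle glutamate, at 2179 ± 146 CPM. The cytoskeletal genes among the first 20 were the microtubule-associated proteins Map1a (2612 ± 208 CPM) and Map1b (1876 ± 268 CPM) and the spectrin Sptan1 (2269 ± 129 CPM). Also among the first 20 were RGD1566401, Ywhaz, Psap, Srrm2, Ndrg2 and Cyfip2, at mean levels of 1871 to 2105 CPM. Ranges of the 5 rats overlapped between neighbours in the order of the first 20, except between Scd2 and Mbp.

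Glial markers took large read shares, and most of their sums were even across rats. The 11 listed oligodendrocyte markers summed to 12738, 10755, 9789, 8583 and 11372 CPM in rats 1 to 5 and the 12 astrocyte markers to 9393, 9173, 9286, 8668 and 8389 CPM. These sums moved by 1.48-fold and 1.12-fold between the lowest and the highest rat. The leading astrocyte markers were S100b (1731 ± 165 CPM), the glutamate transporter Slc1a3 (1670.5 ± 60.6 CPM), the glycolytic enzyme Aldoc (1259.8 ± 94.7 CPM) and the water channel Aqp4 (1243 ± 121 CPM). Astrocyte sums had a coefficient of variation of 4.82%. Close to it were the oligodendrocyte precursors at 4.8%, the microglia at 5.91%, the endothelial cells at 4.41% and the mural cells of the vessel wall at 4.39%. Their sums were 738 ± 35.4 CPM for the precursors, 735 ± 43.5 CPM for microglia, 425 ± 18.7 CPM for endothelial cells and 233 ± 10.2 CPM for mural cells. No gene of these 5 lists passed the test for spread described below, which called 0.277% of all genes tested.

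Oligodendrocyte markers formed a common order across rats. Below Mbp the list held Mobp (616 ± 84.2 CPM), a structural protein of myelin, and Cnp (493 ± 70.7 CPM), an enzyme of the myelin-forming cell. Of its 11 tested genes 10 were highest in rat 1 and all 11 were lowest in rat 4, whereas among all 8655 tested genes 24.1% were highest in rat 1 and 26.1% lowest in rat 4. Opalin, a myelin membrane protein, had 259, 163, 164, 135 and 188 CPM. None of the 11 genes passed that test, and members of one list measured in the same rats are not independent. In the list of precursor cells of this lineage, 1 of 8 tested genes was highest in rat 1 and 2 were lowest in rat 4, and its sum was also lowest in rat 4 (754, 786, 722, 692 and 734 CPM). The defining receptor Pdgfra had 151, 156, 158, 154 and 154 CPM in the 5 rats, a range of 1.05-fold. Bcas1, which is turned on as precursors mature, led the list with 309, 298, 237, 224 and 252 CPM, highest in rat 1 and lowest in rat 4, followed by Olig1 (115 ± 4.71 CPM) and Sox10 (64.7 ± 8.26 CPM).

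Microglia were marked most strongly in reads by Ctss, a lysosomal protease, at 221 ± 19.1 CPM and by the receptor Csf1r at 165 ± 11.9 CPM. The fractalkine receptor Cx3cr1 stood at 33.8 ± 1.56 CPM. Endothelial cells were led by the receptor Flt1 (95.1 ± 5.9 CPM), Vwf (82.2 ± 4.96 CPM), the efflux pump Abcb1a (75.9 ± 16.3 CPM) and the tight-junction gene Cldn5 (67.9 ± 7.36 CPM). Mural cells were led by Pdgfrb (68.2 ± 7.63 CPM), Rgs5, Abcc9 and Myh11, and fibroblasts by Igf2 (44.2 ± 8.88 CPM) and the collagen Col1a1 (14.7 ± 3.78 CPM). Fibroblast sums ran to 90.7 ± 10.2 CPM, while the collagen Col1a2 was listed at 0. The choroid plexus list, for the tissue that makes cerebrospinal fluid, summed to 177 ± 23.3 CPM, of which most was Enpp2 (166 ± 24.2 CPM), a gene that oligodendrocytes also use. Its defining marker Ttr had 1.69, 8.58, 0, 5.37 and 1.34 CPM and Otx2 was listed at 0. The haemoglobin gene Hbb, a marker of blood, had 85.7, 99.2, 111, 36.9 and 123 CPM, lowest in rat 4, and was just outside the threshold of the test for spread (adjusted p = 0.0584).

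Neurons of the striatal type were present at high levels in every rat. All 15 markers shared by both classes of projection neurons reached at least 1 CPM in all 5 rats, and their sum was 9779.9, 8234, 8115, 9765 and 6649 CPM in rats 1 to 5. Gng7, a G protein subunit of the dopamine signalling chain, led at 1313 ± 189 CPM, with Arpp21 at 1264 ± 129 CPM, Ppp1r1b (DARPP-32, a phosphatase inhibitor controlled by dopamine) at 1112 ± 204 CPM and the adenylyl cyclase Adcy5 at 962 ± 141 CPM. Rat 5 was lowest for 14 of the 15 genes, against 20% of all tested genes. The D1-type list summed to 1443, 1139, 1219, 1482 and 861 CPM and the D2-type list to 1516, 1292, 1145, 1469.95 and 809 CPM, and all 5 tested genes of each were lowest in rat 5. No gene of these 3 lists passed the test for spread, although 14 of 15, 5 of 5 and 5 of 5 lay above the fitted trend, compared with 3899 of the 8655 genes tested.

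**Figure D1:**
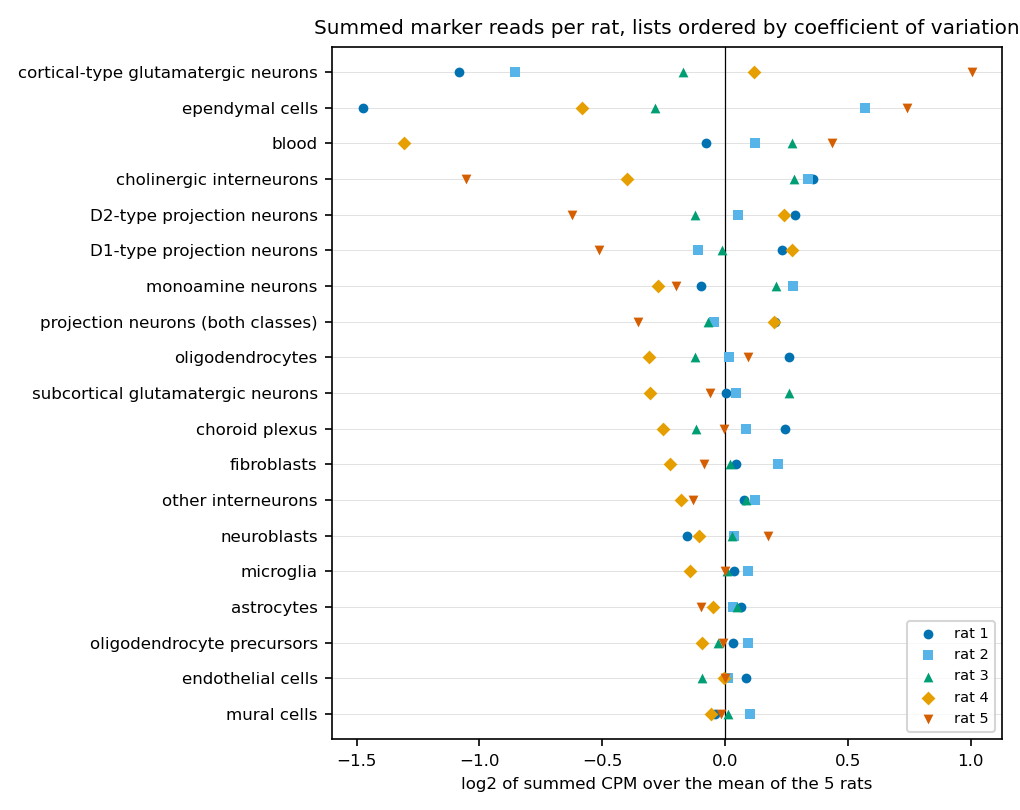
Summed CPM of each of 19 marker lists in the 5 water rats, as log2 of the ratio to the mean of the 5 rats (x axis); each row is a list, ordered by its coefficient of variation, and each symbol is a rat. The cortical-type, ependymal, blood and cholinergic lists spread most, rat 5 lies at the low end of both projection neuron classes and at the high end of the cortical-type list, and the astrocyte, precursor, microglial and vascular lists stay close to 0.

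Interneuron markers other than the cholinergic ones differed in their spread. The somatostatin gene Sst had 134, 136, 118, 116 and 118 CPM in rats 1 to 5. Nos1, the nitric oxide synthase that many of the same cells use, had 67.2, 82.6, 85, 63.8 and 59.9 CPM, and the calcium-binding protein gene Calb2 43.5, 50.2, 61.2, 29.2 and 31.7 CPM. With Lhx6 (37 ± 9.38 CPM) these led a list whose sum was 345 ± 32.6 CPM and in which none of 7 tested genes was called, although 6 lay above the trend. Vip had the widest range of those tested, 4.87-fold, at 9.03 times the trend, and Calb2 was at 6.46 times. Npy was listed at 0. Among the cholinergic markers, Slc5a7, the transporter that returns choline to the cholinergic terminal, had 188, 171, 174, 87.6 and 56.8 CPM in rats 1 to 5 and passed the test for spread (adjusted p = 0.0219). Rats 4 and 5 lay below the other 3 without overlap. The other cholinergic markers were also lowest in rat 5, with the synthesis enzyme Chat at 55.4, 54.2, 43.3, 32.9 and 19.4 CPM, the transcription factor Lhx8 at 24.6, 22.5, 19.8, 8.39 and 6.71 CPM and Ecel1 at 134, 147, 143, 107 and 66.4 CPM. The 5 markers summed to 418, 412, 396, 247 and 157 CPM. The vesicular acetylcholine transporter Slc18a3 was at 13.9 ± 4.42 CPM.

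The marker lists for monoamine and subcortical glutamatergic neurons had low sums, and the cortical-type list a higher one. These lists are not particular to neurons with cell bodies outside the NAc, since Th and Calb2 are also in the list of other interneurons. Among the monoamine genes, tyrosine hydroxylase (Th) was at 0.6 ± 0.485 CPM, the dopamine transporter Slc6a3 at 0.115 ± 0.171 CPM and the serotonin transporter Slc6a4 at 0.28 ± 0.31 CPM, levels of at most a few reads per rat, and the noradrenaline transporter Slc6a2 was listed at 0, where 3 reads over the 5 rats would equal 0.149 CPM. Slc18a2 (17.8 ± 3.93 CPM), Ddc (15.2 ± 3.44 CPM) and Tph2 (1.72 ± 0.787 CPM) had more reads, and the 8 monoamine markers together summed to 36.1 ± 6.24 CPM. The subcortical glutamatergic list, which includes Calb2, Zic1 (30.5 ± 7.87 CPM), Slc17a6 (27.1 ± 7.63 CPM) and Slc17a8 (25.8 ± 7.43 CPM), summed to 152 ± 21.3 CPM. The cortical-type list summed to 200.2, 234, 376, 459 and 849 CPM, a range of 4.24-fold. Neuroblast genes were present in every rat, led by Tubb3 (345 ± 35.2 CPM), which mature neurons also use, and by Dcx (145 ± 13.1 CPM), Stmn1 (128 ± 11.9 CPM) and Dlx1 (39.97 ± 12.6 CPM). All 5 tested neuroblast genes were highest in rat 5, against 20% of all genes tested, and none was called.

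The precursors of the peptides of projection neurons had the largest read shares among neuropeptide genes. Penk, the enkephalin precursor, had 962, 827, 666, 925 and 456 CPM in rats 1 to 5, Tac1, the precursor of substance P, 456, 332, 372, 448 and 230.2 CPM, and Pdyn, the dynorphin precursor, 369, 335, 377, 440.1 and 298 CPM. In each of the 5 rats Penk had more reads than Pdyn or Tac1, and for Penk against Pdyn the ranges did not overlap. Ranges of Tac1 and Pdyn overlapped. All 3 were lowest in rat 5, as was Cartpt, the precursor of the CART peptides, at 127 ± 16 CPM. Tac3 followed at 29.3 ± 4.27 CPM, while Pnoc, the nociceptin precursor, was at 6.46 ± 2.95 CPM, Pomc at 0.996 ± 0.79 CPM and Tac4 at 0.543 ± 0.329 CPM.

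Cholecystokinin, Cck, differed from these peptides. It had 38.1, 35.9, 70.1, 75.5 and 143 CPM, a 3.97-fold range that was highest in rat 5 and passed the test for spread (adjusted p = 0.0216). Which cells held the Cck reads was not tested. Vip, a peptide of interneurons, had 4.73, 6.17, 14.5, 10.4 and 23 CPM over the same rats without being called. Nts, the neurotensin precursor, had 46.1 ± 8.75 CPM, and Crh and the remaining interneuron peptides had means under 2 CPM. Of the 9 hypothalamic peptide genes only Trh reached 1 CPM in every rat, at 5.76 ± 0.145 CPM. Gnrh1, Gal, Agrp and Hcrt stood at means of 0.284 to 2.12 CPM, and Oxt and Pmch were listed at 0. Among other peptides Nucb2 led at 47.8 ± 7.24 CPM, with Nmb at 11.4 ± 6.59 CPM, Nppa at 6.7 ± 2.38 CPM, Nppc at 2.7 ± 1.06 CPM and Grp at 1.79 ± 2.98 CPM. The granins and processing enzymes that accompany secretory granules had one of the steadiest list sums, 5950 ± 92.7 CPM with a coefficient of variation of 1.56%. After Cpe these were led by Chgb (669 ± 14.4 CPM), Scg5 (506 ± 23.4 CPM), Scg2 (487 ± 50.8 CPM) and Scg3 (466 ± 23.1 CPM).

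**Figure D2:**
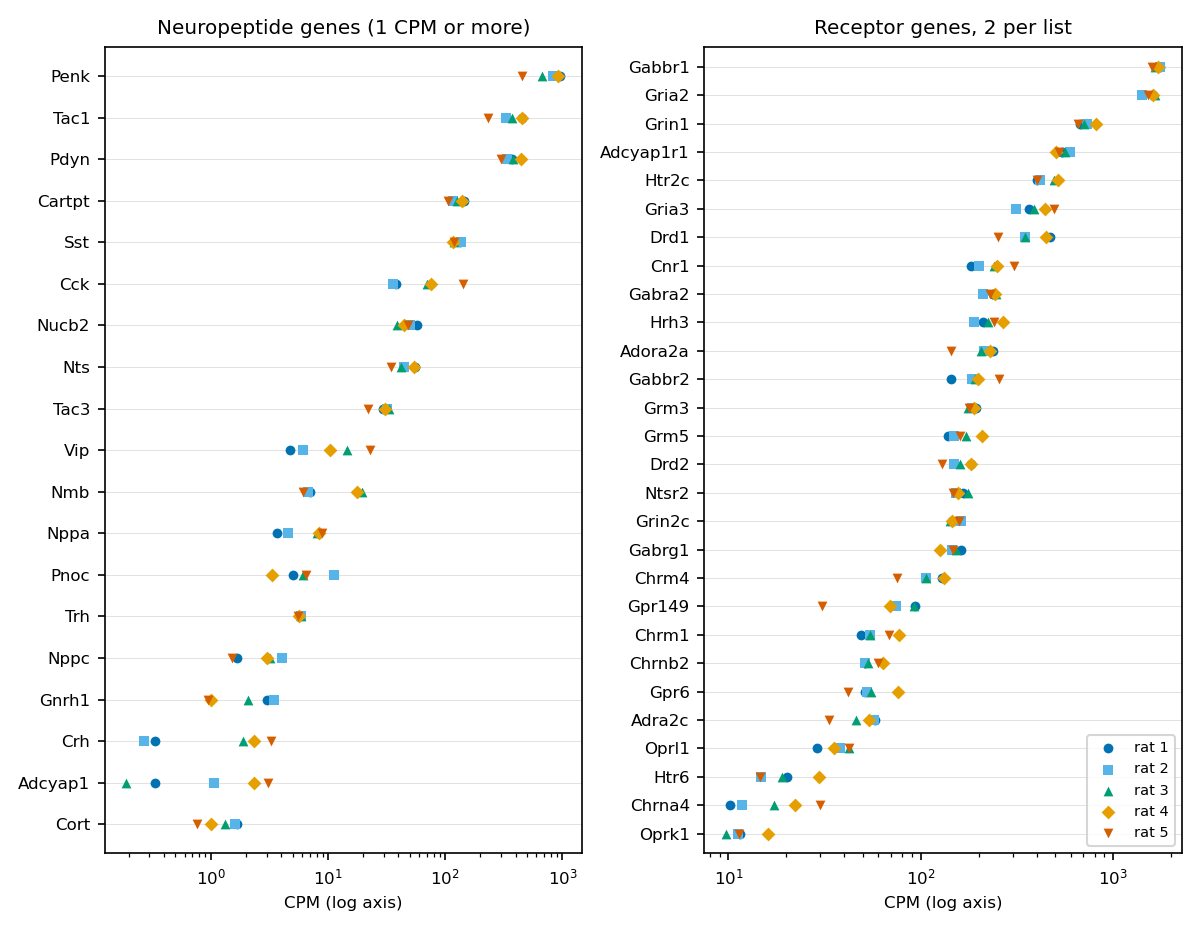
CPM on a log axis (x) for each of the 5 water rats, shown as symbols, of the neuropeptide genes with a read in every rat and a mean of 1 CPM or more (left), and of 2 genes from each receptor list (right). Penk, Tac1 and Pdyn lead the peptides with rat 5 lowest, Cck and Vip are highest in rat 5, and receptor genes lie from 12 CPM for Oprk1 to 1689 CPM for Gabbr1.

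Dopamine receptor genes were led by Drd1 and Drd2, which are themselves members of the D1-type and D2-type lists. Drd1 had 470.2, 348, 346, 449 and 250.3 CPM in rats 1 to 5 and Drd2 183, 148, 159, 182 and 129 CPM. Drd1 had the larger read share in 5 of 5 rats and the ranges did not overlap. Drd3, a receptor of the ventral striatum, was at 9.8 ± 2.76 CPM, Drd5 at 2.31 ± 0.965 CPM, each below its neighbour without overlap, and Drd4 was listed at 0. Drd3 was highest in rat 2 and Drd5 in rat 5. Drd1 and Drd2 were both highest in rat 1 and lowest in rat 5, with quasi-dispersions of 10.5 and 3.18 times the trend, and neither was called.

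The 4 opioid receptor genes had means of 4.62 to 37.3 CPM. The nociceptin receptor Oprl1 was at 37.3 ± 5.73 CPM, above the kappa receptor Oprk1 (12 ± 2.42 CPM) without overlap. The mu receptor Oprm1 (10.1 ± 3.61 CPM) overlapped both Oprk1 and the delta receptor Oprd1 (4.62 ± 0.939 CPM). Muscarinic receptors were led by Chrm4 (109.9 ± 22.7 CPM), an inhibitory receptor of D1-type neurons, with Chrm1 (60.5 ± 11.4 CPM) next and Chrm3 (25.3 ± 7.11 CPM), Chrm2 (8.84 ± 1.12 CPM) and Chrm5 (1.88 ± 0.664 CPM) in descending order without overlap from Chrm1 on. Of the nicotinic subunits Chrnb2 (55.7 ± 5.61 CPM) exceeded Chrna4 (10.1, 11.8, 17.2, 22.2 and 29.7 CPM, highest in rat 5) in every rat. Chrna7 (10.6 ± 1.18 CPM), Chrna5 and Chrna2 (5.04 ± 1.98 CPM) were lower, and Chrna6 was listed at 0.

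Other receptors of modulators had larger shares. The cannabinoid receptor Cnr1 had 183, 202, 241, 249.7 and 306 CPM, highest in rat 5, while the adenosine receptor Adora2a, a D2-type gene, had 236, 213, 206, 229 and 143 CPM, lowest in rat 5. Adora1 (37.2 ± 6.76 CPM), Adora2b (11.4 ± 2.7 CPM) and Cnr2 (2.06 ± 1.25 CPM) followed. Serotonin receptors were dominated by Htr2c at 446 ± 54.5 CPM, far above Htr6 (19.6 ± 6.09 CPM), the channel subunit Htr3a (19.3 ± 1.4 CPM), Htr1b (14.2 ± 2.46 CPM) and Htr5a (12.9 ± 2.66 CPM). Of the 6 tested serotonin receptor genes 5 were highest in rat 4, as were 19.3% of all genes tested. The histamine receptor Hrh3 was at 227 ± 29.9 CPM and the adrenergic receptors Adra2c and Adra2a at 49.6 ± 10.3 and 18.6 ± 7.71 CPM, with Adra2b and Hrh1 at means under 7 CPM. Receptors for peptides were led by Adcyap1r1, the PACAP receptor, at 543 ± 36 CPM and by Ntsr2, a neurotensin receptor of astrocytes, at 159 ± 11.2 CPM, before Cckbr (27.3 ± 7.71 CPM), the substance P receptor Tacr1 (26.1 ± 8.17 CPM) and Npy1r (24.2 ± 5.03 CPM). The orphan receptor Gpr149 had 93.2, 74.6, 91.7, 69.2 and 30.7 CPM and was lowest in rat 5, as were 6 of 7 tested orphan receptors, among them Gpr6, Gpr52 and Gpr101, against 20% of all genes tested.

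The summed levels of receptors for GABA and glutamate varied little, with coefficients of variation of 2.17% for GABA-B and glycine, 5.28% for AMPA and kainate, 8.11% for metabotropic glutamate and 8.74% for NMDA receptors. The GABA-A list summed to 1330.5 ± 49.5 CPM (coefficient of variation 3.72%), and among its subunits were Gabra2 (233 ± 14.1 CPM), Gabrg1 (146 ± 12.9 CPM) and Gabra4 (119 ± 14.1 CPM). Gabbr1, a subunit of the GABA-B receptor, had the largest read share of all receptor genes listed, 1689 ± 71.6 CPM, against 194 ± 40.3 CPM for its partner Gabbr2, and the glycine receptor subunits Glrb, Glra2, Glra3 and Glra1 had less. Gabbr2 had 143, 185, 190.2, 198 and 255 CPM and was highest in rat 5, while Gabbr1 was lowest there. AMPA receptor subunits were led by Gria2 (1558 ± 95.4 CPM), Gria3 (399.98 ± 69.7 CPM) and Gria1 (280.04 ± 33.4 CPM). The kainate subunit Grik5 had a range of only 1.04-fold, 274, 265, 268, 273 and 264 CPM. For NMDA receptors the obligatory subunit Grin1 was at 716 ± 60.9 CPM, before Grin2c (150.03 ± 8.94 CPM), Grin2b (66.5 ± 13.8 CPM), Grin2a (53, 48.3, 65.9, 102 and 60.2 CPM, highest in rat 4) and Grin3a (30.9 ± 5.55 CPM). Metabotropic receptors were led by Grm3 (184 ± 7.41 CPM) and Grm5 (166 ± 27.3 CPM), and Grm7 and Grm4 had less. No gene of the 14 receptor lists was called.

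Transporter genes had the largest read shares for ion pumps and for the uptake of transmitters. The 11 ion pump genes summed to 11818 ± 384 CPM, in which the calcium pumps Atp2a2 (1246 ± 29.4 CPM) and Atp2b1 (717 ± 140.3 CPM) stood below Atp1b1. For glutamate, Slc1a3 (GLAST) at 1670.5 ± 60.6 CPM exceeded Slc1a2 (GLT-1) at 964 ± 84.8 CPM in read share without overlap, and the neuronal Slc1a1 was at 53 ± 6.76 CPM. Slc6a11 (GAT-3), which takes up GABA, had 129, 167, 135, 113 and 85.4 CPM. Of the same family were the creatine transporter Slc6a8 (168 ± 15.6 CPM), the glycine transporter Slc6a9 (137 ± 24.1 CPM) and the taurine transporter Slc6a6 (80.4 ± 5.42 CPM). The chloride exporter Slc12a5 (KCC2) stood at 852 ± 62.5 CPM and the importer Slc12a2 (NKCC1) at 268 ± 14.4 CPM, while Slc2a1, Slc16a1 and Slc29a1, which carry glucose, lactate and nucleosides, were at 169.8 ± 22.1, 69.5 ± 11 and 20.4 ± 3.12 CPM. Besides Slc5a7, the uptake list held Slc29a4 (15.6 ± 2.73 CPM) and Slc22a3 (4.22 ± 2.27 CPM).

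Of the vesicular transporters and vesicle proteins, 2 were called. Slc32a1, which loads GABA into vesicles, had 309, 328, 259.7, 278 and 231 CPM and was lowest in rat 5. The vesicle protein Sv2a, found in nearly all neurons, was even at 550.2, 584, 557, 516 and 553 CPM. Its relatives were not. Sv2b, typical of glutamatergic terminals, had 134, 208, 217, 266 and 507 CPM (adjusted p = 0.0143), whereas Sv2c, typical of the basal ganglia, had 88.8, 73.5, 108, 117 and 56 CPM with its minimum in rat 5. Slc17a7 (VGLUT1), which loads glutamate into the vesicles of cortical neurons, had 78.3, 119, 231, 268 and 584 CPM (adjusted p = 0.00115). Its lowest value was in rat 1 and its highest, 7.45-fold above it, in rat 5. The other vesicular glutamate transporters were not called, with Slc17a6 at 26.3, 22, 25.7, 21.1 and 40.1 CPM, highest in rat 5, and Slc17a8 at 33.1, 22, 28.8, 30.5 and 14.8 CPM, lowest in rat 5.

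Across all genes, a test asked which differed among the 5 water rats by more than genes with like counts did. In the 8655 genes tested, the typical rat-to-rat variation beyond counting noise, the common biological coefficient of variation, was 11.3%. With a test against counting noise alone, 3914 genes (45.2% of those tested) varied. Against the trend of genes with like counts, 24 genes were called at an adjusted p under 0.05, which is 0.277% of those tested. The measure used is a gene's quasi-dispersion divided by the trend, and its median over all tested genes was 0.90. Leaving out a rat moved the count, to 6 genes without rat 2, to 4 without rat 5 and to 44 without rat 4.

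**Figure D3:**
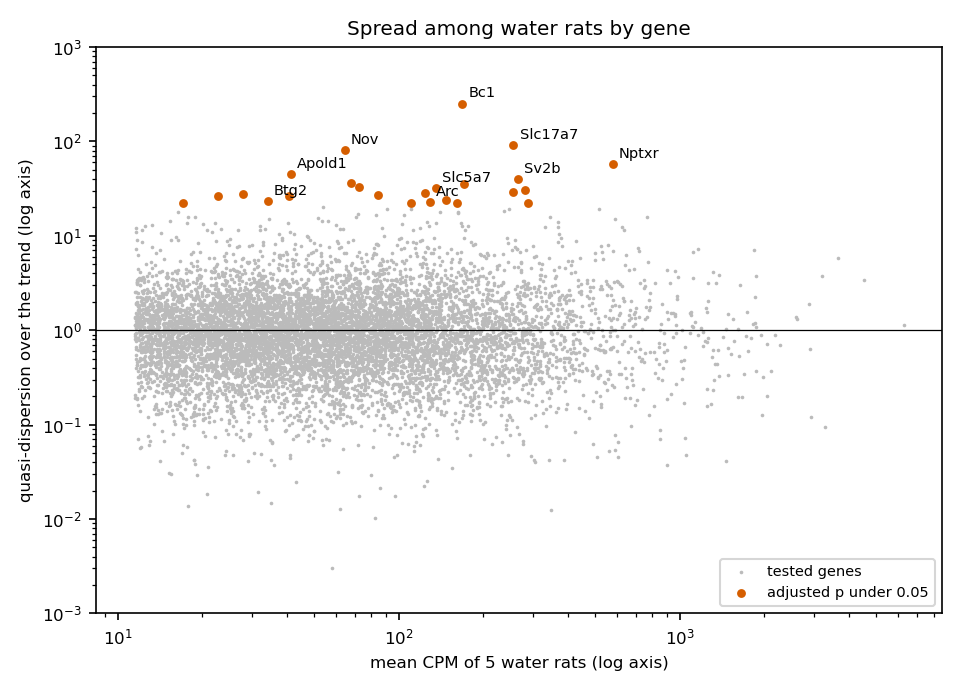
Quasi-dispersion of each gene among the 5 water rats divided by the fitted trend (y axis, log scale) against its mean CPM (x axis, log scale) for 8655 tested genes, in grey, with the 24 genes at an adjusted p under 0.05 in orange. Bc1 lies highest at 251 times the trend, followed by Slc17a7 at 91.7 and Nov at 81.0.

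Bc1, a short neuronal RNA that takes part in the control of translation at dendrites, varied most. It had 609, 116, 47.3, 17.8 and 49.5 CPM in rats 1 to 5, so that rat 1 exceeded rat 4 by 34.2-fold (adjusted p = 2.7e-05). Rat 1 also had the most alignments at several places, 2.57 for each gene read, and the largest share of reads outside annotated genes, 51.1%, against 48.5% to 49.6% in the other rats. The part of these measures in the level of Bc1 was not tested. The libraries held polyA+ RNA, and how fully they captured this short RNA in each rat was not tested either. Without rat 1 Bc1 was still called (adjusted p = 0.0139).

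A group of neuronal genes was highest in rat 5. Of the 24 called genes 17 were highest in rat 5, as were 20% of all genes tested, and 15 were lowest in rat 1, as were 25.6%. Not all 17 belong to the neuronal group, since they include Vwa3a and Dnah1 of ciliated cells and also Nov and Ptgds (below). Slc17a7 led the neuronal group. Neurod6, a transcription factor of cortical pyramidal neurons, had 6.08, 16.6, 24, 30.5 and 62.5 CPM (adjusted p = 0.0263), and Bhlhe22, another factor of cortical projection neurons, 3.71, 18.2, 21.3, 16.8 and 53.7 CPM. The order of rats 1 to 5 in Neurod6 equalled that of Slc17a7. Nptxr, the neuronal pentraxin receptor of glutamatergic synapses, had 247, 423, 521, 518 and 1177 CPM (adjusted p = 0.00453), and its ligand Nptx1 96.2, 113, 154, 165 and 326 CPM (adjusted p = 0.018). Olfm1, a secreted neuronal glycoprotein, had 164, 204, 251, 288 and 499 CPM. The adenylyl cyclase Adcy1 had 79, 132, 130.4, 139.98 and 253 CPM, the synaptotagmin Syt17 15.9, 22, 50.3, 35.9 and 80.4 CPM and the axon guidance ligand Slit1 30.4, 77, 83.7, 89.96 and 141 CPM. In all of these rat 1 was lowest and rat 5 highest. RGD1561849, an unnamed gene model, had 161, 170.04, 253, 239 and 450.03 CPM. Without rat 5 the number of called genes was 4 in place of 24, and these were Bc1, Slc17a7, Apold1 and Btg2. The call of Slc17a7 held in each of the 5 fits that left out a rat (adjusted p of 0.000323 to 0.00628).

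The cortical-type marker list ran in the same direction, but it holds Slc17a7 and Neurod6, so its sum partly repeats the values above. Of its 6 tested genes 2 were called (Slc17a7 and Neurod6), beside 0.277% of all genes tested. All 6 lay above the trend, as did 3899 of the 8655 genes, and 5 were highest in rat 5 and 5 lowest in rat 1, against 20% and 25.6% of all. Nrn1 had 9.79, 15.3, 18.3, 22.2 and 45.5 CPM, Slc30a3, the zinc transporter of glutamatergic vesicles, 4.39, 7.51, 10.1, 14.8 and 29.5 CPM, and Tbr1 3.38, 6.97, 9.72, 13.8 and 24.6 CPM, and none of these 3 was called. Cux2, with 92.5, 57.4, 68.4, 92 and 57.9 CPM, had its highest value in rat 1. The sum of the list in rat 5 was 849 CPM and its sum in rat 1 was 200.2 CPM, while the markers of both projection neuron classes summed to 6649 and 9780 CPM in the same rats. Rat 4 did not follow this contrast, with a cortical-type sum of 459 CPM and a projection neuron sum of 9765 CPM. Slc17a7 alone made up 584 of the 849 CPM of the cortical-type list in rat 5 and 78.3 of the 200.2 CPM in rat 1. Without Slc17a7 the mean sum of that list was 168 CPM in place of 424. Rat 3 had 5247386 gene reads and rat 5 had 5213033, and their values of Slc17a7 were 231 and 584 CPM. The number of alignments at several places for each gene read was lowest in rat 5, at 2.22, and highest in rat 1, at 2.57. The part of tissue composition, depth or this measure in the spread was not tested.

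**Figure D4:**
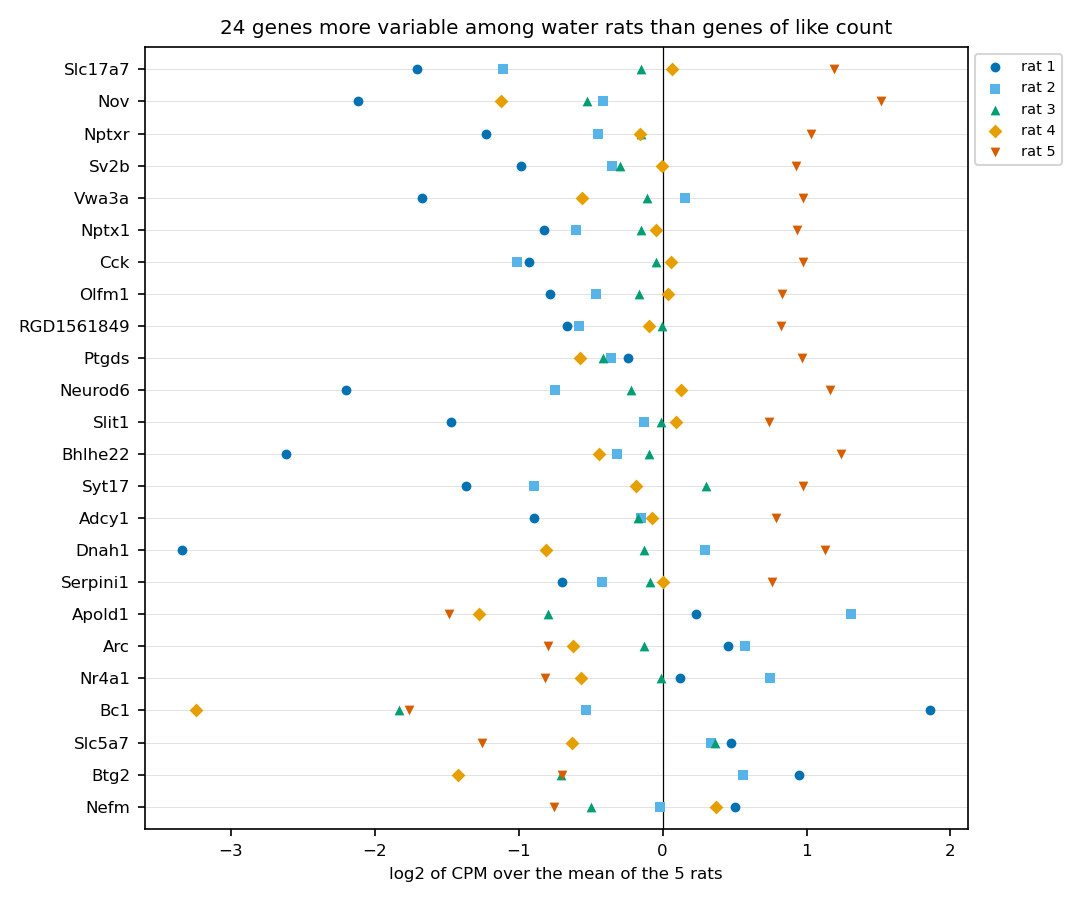
CPM of the 24 called genes in each of the 5 water rats, as log2 of the ratio to the mean of the 5 rats (x axis); each row is a gene, grouped by the rat in which it was highest, and each symbol is a rat. The upper 17 genes are highest in rat 5, the next 3 (Apold1, Arc and Nr4a1) in rat 2 and the last 4 (Bc1, Slc5a7, Btg2 and Nefm) in rat 1.

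Genes of motile cilia, which ependymal cells of the ventricle wall carry, spread in another order. Vwa3a, a gene of ciliated cells, had 21.3, 75.6, 62.7, 46 and 133 CPM in rats 1 to 5 (adjusted p = 0.0175). Dnah1, an axonemal dynein, had 1.69, 20.9, 15.6, 9.73 and 37.4 CPM (adjusted p = 0.0395). Both were highest in rat 5, second in rat 2 and lowest in rat 1. The ependymal list summed to 17.9, 73.8, 40.8, 33.2 and 83.1 CPM, a range of 4.64-fold in the same order of rats. Its regulator Foxj1, the only member with enough reads to be tested, had 4.73, 17.4, 9.72, 8.39 and 18.8 CPM and was not called. Ak7 had 1.35, 19.8, 8.96, 3.36 and 22.4 CPM, in that order. Tmem212, with 0.338, 11.8, 4.38, 5.71 and 11.3 CPM, was highest in rat 2, and Rarres2, with 10.1, 7.78, 9.15, 8.06 and 8.82 CPM, was highest in rat 1, while Ccdc153 was at 6.4 ± 4.13 CPM. The part of ependymal tissue in the spread of Vwa3a and Dnah1 was not tested.

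Of the other called genes, 3 were among those highest in rat 5. Nov, a secreted matrix-associated protein, had 14.9, 48.3, 44.8, 29.5 and 184 CPM (adjusted p = 0.00132), and Ptgds, the prostaglandin D synthase of the meninges and of glia, 105, 96.6, 92.8, 83.2 and 242 CPM (adjusted p = 0.0255). For both, rat 5 lay apart from the other 4. Serpini1, the neuronal protease inhibitor neuroserpin, had 99.2, 120.4, 152, 162 and 273 CPM, in the same order of rats as Slc17a7. Nefm, a neurofilament subunit, had 408, 285, 204, 373 and 171 CPM, highest in rat 1 and lowest in rat 5. Dnah1, Nefm and Serpini1 lay outside the naming rule and were named after their values were seen, to complete the list of 24. The gene nearest to the threshold among those not called was Sidt1 (adjusted p = 0.0556), and the nearest among those called were Btg2, Arc, Nefm, Dnah1, Nr4a1 and Serpini1, which shared an adjusted p of 0.0395.

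Immediate early genes, which neurons switch on for a short time after activity, formed a further set. All 23 of the list reached at least 1 CPM in every rat, with a sum of 1189, 1315, 1065, 921 and 842 CPM in rats 1 to 5. In all, 3 genes of the list passed the test, and none of these 3 did when limma's variance of log2 CPM was tested in its place. Arc, a regulator of synaptic AMPA receptors, had 177, 192, 118, 83.9 and 74.4 CPM (adjusted p = 0.0395). The nuclear receptor Nr4a1 had 121, 186, 110.2, 74.9 and 62.9 CPM (adjusted p = 0.0395), and Btg2, an inhibitor of proliferation, 65.8, 50.4, 21, 12.8 and 21.1 CPM (adjusted p = 0.0395). In all 3 genes rats 1 and 2 lay above rats 3, 4 and 5 without overlap. Apold1, an early response gene of endothelial cells, was outside the list, was called as well (adjusted p = 0.00997) and had 48.6, 103, 23.8, 17.1 and 14.8 CPM.

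Of the 21 tested immediate early genes 10 were highest in rat 2 and 5 in rat 1, against 20.5% and 24.1% of all genes tested, and 18 lay above the trend, as did 3899 of all 8655. Those with most reads beside the called ones were Homer1 (141, 119.9, 169.6, 182 and 157 CPM), Egr1 (141, 122, 119, 109.8 and 68.5 CPM) and Jun (72.6, 90.7, 52.6, 43.3 and 53.1 CPM). Chosen after their values were seen, Fos had 43.5, 47.5, 33, 19.8 and 21.1 CPM, Dusp1, a phosphatase that ends MAP kinase signals, 81, 73.5, 45.4, 34.2 and 32 CPM, and the neuronal factor Npas4 37.1, 28.4, 16.8, 6.71 and 11.9 CPM. Rats 1 and 2 were highest for all 3. Not every member shared this order. Of the 21 tested genes 5 were lowest in rat 1 and 2 in rat 2, against 25.6% and 16.3% of all genes tested. Nr4a3 had 23.6, 47.2, 72.6, 68.5 and 68.7 CPM, lowest in rat 1, and Nr4a2, of the same receptor family, 11.1, 8.58, 15.8, 19.5 and 20.5 CPM, lowest in rat 2, and Homer1 was also lowest in rat 2. Egr1, Jun, Fos, Dusp1, Npas4, Nr4a3, Nr4a2 and Homer1 were not called. Without rat 2, Arc, Nr4a1, Btg2 and Apold1 were not called (adjusted p of 0.0986 to 0.360), and without rat 1 Btg2 was not called (adjusted p = 0.124).

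**Figure D5:**
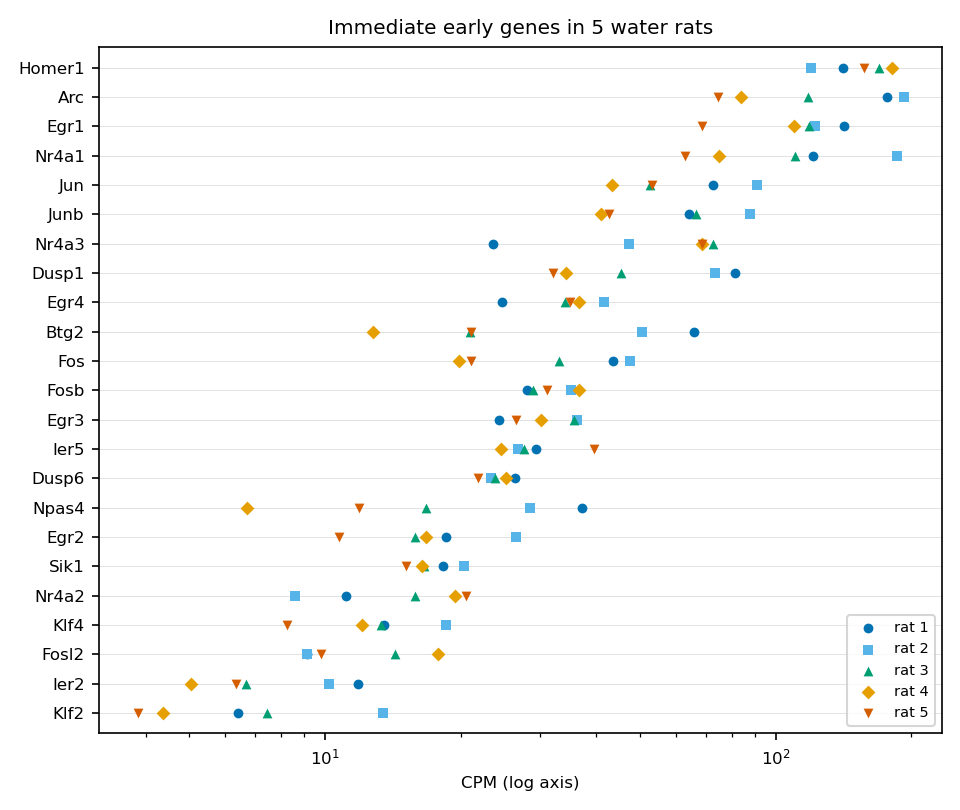
CPM on a log axis (x) of 23 immediate early genes, 1 per row and ordered by mean CPM, in the 5 water rats, shown as symbols. Rats 1 and 2 are highest for Arc, Egr1, Nr4a1, Jun, Dusp1, Btg2, Fos and Npas4, while Homer1, Nr4a3 and Nr4a2 are among those with rat 1 or rat 2 lowest.

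The upstream sequences of Btg2, Nr4a1 and Dusp1 are shown because these genes were high in the same rats and the letters they hold differ. They are the 250 bases before the annotated start in RefSeq's GRCr8 assembly, read 5′ to 3′ on the strand of the gene, whereas the reads were aligned to an earlier assembly. Capitals mark the cAMP response element TGACGTCA, to which the factor CREB is known to bind, or the related letters TGCGTCA, searched on both strands. The search used the 250 bases before and 50 after each start, and TGACGTCA was held by 1.83% and TGCGTCA by 1.90% of 33469 such windows.
Btg2 (GRCr8 chr13:48087691-48087940, minus strand): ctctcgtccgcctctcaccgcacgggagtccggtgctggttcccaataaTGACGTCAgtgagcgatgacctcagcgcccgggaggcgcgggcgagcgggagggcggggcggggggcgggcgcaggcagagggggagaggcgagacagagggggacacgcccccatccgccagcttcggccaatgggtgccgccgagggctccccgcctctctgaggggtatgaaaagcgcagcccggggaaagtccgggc
Nr4a1 (GRCr8 chr7:134259888-134260137, plus strand): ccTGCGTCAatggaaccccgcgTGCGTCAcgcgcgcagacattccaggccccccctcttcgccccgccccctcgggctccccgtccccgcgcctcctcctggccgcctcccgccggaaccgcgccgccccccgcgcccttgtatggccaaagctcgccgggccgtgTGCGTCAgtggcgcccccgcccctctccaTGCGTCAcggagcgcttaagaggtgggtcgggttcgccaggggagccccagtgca
Dusp1 (GRCr8 chr10:17184603-17184852, plus strand): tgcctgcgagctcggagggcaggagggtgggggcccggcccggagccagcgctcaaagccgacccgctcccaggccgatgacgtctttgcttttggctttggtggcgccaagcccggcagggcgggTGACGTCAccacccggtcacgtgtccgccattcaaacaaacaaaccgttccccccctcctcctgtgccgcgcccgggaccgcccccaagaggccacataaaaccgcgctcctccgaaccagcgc
Btg2 and Dusp1 held 1 TGACGTCA each and Nr4a1 held 4 TGCGTCA and no TGACGTCA. Of 17 immediate early genes with a window, TGACGTCA was found in 3 (Btg2, Dusp1 and Ier2) and TGCGTCA in 1 (Nr4a1). The CArG box, the site of serum response factor, was found in 2 (Egr1 and Egr2) and in 1.64% of all windows. Of the 24 called genes 14 had a window, and TGACGTCA was also found in that of Neurod6. These matches describe the letters only.

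The sums of the other state lists were steadier. The circadian sum had the smallest relative spread of all list sums, with a coefficient of variation of 1.14%. It was 2075, 2053, 2083, 2026 and 2042 CPM in rats 1 to 5. Single circadian genes did not share this, with a median quasi-dispersion of 1.33 times the trend against 0.90 over all genes tested. In this list 9 of 13 tested genes lay above the trend, as did 3899 of all 8655. Its leading genes were Tef (524 ± 13.6 CPM), Nr1d2 (229 ± 22.5 CPM), Clock (206 ± 9.61 CPM), Cry2 (199.8 ± 15.3 CPM) and Dbp (165 ± 21.1 CPM). Genes known to respond to glucocorticoids summed to 556, 635, 698, 789.9 and 693 CPM. Sgk1, a kinase of this group, had 84.7, 108, 116, 195 and 136 CPM with its maximum in rat 4 and was not called, while Per1 (153 ± 19 CPM), Fkbp5 (92.1 ± 4.7 CPM), Tsc22d3 (89.9 ± 8.65 CPM) and Ddit4 (83.4 ± 6.48 CPM) had smaller ranges. All 8 tested genes of this list were highest in rat 3 or rat 4, as were 16.1% and 19.3% of all genes tested. Heat shock genes summed to 2077 ± 104 CPM, led by Hsp90ab1 (932 ± 29.1 CPM), Hsph1 (589.6 ± 43.2 CPM), Hspa5 (478 ± 63.5 CPM) and Dnajb1 (63.6 ± 7.47 CPM), with the inducible Hspa1b at 3.97 ± 1.67 CPM. None of the genes of these 3 lists was called, against 3 of 21 immediate early genes and 0.277% of all tested genes.

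The median quasi-dispersion over the trend described each list in the same way. It was 13.3 for the cortical-type list, 10.9 for the cholinergic list, 6.15 and 5.84 for the D1-type and D2-type lists, 4.94 for oligodendrocytes, 4.19 for both projection classes and 3.80 for immediate early genes. It was 1.45 for astrocytes, 1.11 for endothelial cells, 1.01 for mural cells, 0.95 for microglia and 0.79 for oligodendrocyte precursors, beside 0.90 over all genes tested. Among the receptor lists it ran from 0.61 for the GABA-B and glycine receptors (4 tested genes) to 6.82 for the dopamine receptors. The latter value rests on 2 tested genes, Drd1 and Drd2, which are also in the D1-type and D2-type lists. Lists with steady sums were not all low by this measure. It was 0.77 for AMPA and kainate, 1.55 for NMDA, 1.67 for metabotropic glutamate and 1.82 for GABA-A receptors. For the granins and processing enzymes it was 1.94. The heat shock, circadian and glucocorticoid lists had 1.13, 1.33 and 2.15.

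The 5 EtOH rats of the same experiment gave the same measure in rats that did not take part in the choice of the 24 genes. In them 37 of 8655 genes were called (0.427%), and the common biological coefficient of variation was 10.8%. The difference from the 11.3% of the water rats was not tested. Of the 24 genes called in water rats 7 were also called in EtOH rats, which is 29.2% of the first list and 18.9% of the second. They were Bc1, Slc17a7, Nov, Ptgds, Btg2, Arc and Nr4a1. All 24 lay above the trend in the EtOH rats, as did 44.3% of the genes tested there. Bc1 had 38.5 CPM in the lowest, 100.4 in the median and 356 in the highest EtOH rat, and Slc17a7 had 198, 266 and 555 CPM. The cortical-type sum ran from 325 to 816 CPM and the cholinergic sum from 165 to 303 CPM, so that both ranges overlapped those of the water rats.

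In the second experiment the common biological coefficient of variation was 28.6% in the 6 rats given water by gavage and 33.7% in the 6 given EtOH by gavage. The same edgeR test called 0 genes in each of these groups, with 401 and 337 genes at an unadjusted p under 0.05, against 536 in the water rats. These rats differed in treatment, library type and instrument from the water rats of experiment 1, and the spreads cannot be told apart from these differences.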

How the data were processed

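Reads of the 5 water libraries of experiment 1 were aligned by the authors to the Rnor_6.0 rat genome with TopHat2 2.0.13 and counted per gene with htseq-count (HTSeq 0.5.3p3 and 0.6.0 are both listed in the submitters' processing notes). The annotation release and the htseq-count options were not given in the sources used here. The deposited files hold raw read counts for 17310 gene symbols and 5 summary lines, without normalization. The summary lines were left out of library sizes. Reads outside annotated genes made up 48.5% to 51.1% of gene reads and outside reads together, and alignments at several places are not in the counts.

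From the counts, CPM was computed over all gene reads of each rat, and means, SDs and ranges over the 5 rats. Each library is a separate rat, so SDs cover animal and technical variation together. The reads per rat set the precision of low genes, and a total of 0 reads over the 5 rats allows up to 0.149 CPM (3 reads, counting error only).

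Spread was tested in edgeR 4.0.16 (R 4.3.3) with a fit of an intercept only (TMM, estimateDisp, glmQLFit with a robust prior). The quasi-dispersion of a gene over the fitted trend was referred to the upper tail of the F distribution with the residual and prior degrees of freedom, with Benjamini-Hochberg adjustment over 8655 genes, whose base mean exceeded the median over the whole list (44.8 normalised counts). Genes at an adjusted p under 0.05 are called. The study's test compares groups and could not be used within a single group. The procedure was tested on simulated counts. Alternatives were DESeq2 1.42.0, limma 3.58.1, other normalizations and filters, and leaving out each rat.

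The rats, gene lists and naming rule were chosen with earlier results of these data known. The named genes are the 20 with the highest mean CPM, the 5 members of highest mean CPM in each list of receptors, transporters, peptides and states, the 4 in each marker list, the 20 called genes of lowest p and every called list member. Further genes named are members of the lists. Some genes picked by this rule are not reported here. The list of genes that nearly every cell uses and the promoter motifs were chosen after values had been seen. Of the list members, 12 symbols were not found among the listed symbols. Promoter sequences are from RefSeq (GRCr8). Where the reference held no promoter entry, as for Arc and Fos, none was searched.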

Additional observations from a re-analysis of the deposited data

Results flagged for a closer look

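In 302 sets of 5 values (251 named genes and 51 list sums, 1 value per water rat), 14 had a highest rat that stood apart from the other 4 by more than Dixon's criterion for 5 values. About 1 set in 20, or 15.1 sets, would pass it by chance, so the number of passes is not above that level. The named genes include the called genes, which were picked for their spread in these same rats. The 15.1 does not allow for that choice. All 14 were high values, 8 of them in rat 5, 3 in rat 1 and 3 in rat 4.

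In rat 5, Nov stood at 184.35 CPM against 14.9 to 48.3 in the other rats, and Ptgds at 242.28 CPM against 83.2 to 104.6. Both genes were scanned because they had passed the test for spread. Chrna5, a nicotinic receptor subunit, stood at 20.909 CPM in rat 5 against 3.36 to 4.56, and Slc17a6, the subcortical vesicular glutamate transporter, at 40.092 CPM against 21.1 to 26.3. The endothelial gene Vwf was at 90.926 CPM against 78.5 to 81.0. Grp, the gastrin-releasing peptide, was at 7.0976 CPM against at most 0.805. Agrp (1.5346 CPM) and Hcrt (1.151 CPM) stood apart in the same rat at a few reads each.

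In rat 1, Bc1 stood at 608.99 CPM against 17.8 to 116 and passed the test for spread, the efflux pump Abcb1a was at 103.64 CPM against 63.3 to 74.3, and the lactate transporter Slc16a1 was at 88.783 CPM against 62.1 to 68.4. In rat 4, Map1a was at 2969.1 CPM against 2446 to 2585, the kappa opioid receptor Oprk1 at 16.113 CPM against 9.72 to 11.5, and the muscarinic receptor sum at 244.71 CPM against 192 to 205. Of these 14, Bc1, Nov and Ptgds were scanned because they had been called for spread in these rats, so the flag adds no separate evidence for them.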

How the results depend on the processing

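The count of 24 genes more variable than genes of like count was 39 with a filter at a mean count of 10, 138 without a filter, 4 without the robust prior, 89 as DESeq2 dispersion outliers and 3914 against counting noise alone, and 4 to 44 when each rat was left out (6 without rat 2, 4 without rat 5 and 44 without rat 4). The test against counting noise asks about another quantity, and the wider filters test more genes. For the other settings the cause was not tested. Bc1 and Slc17a7 were called in each fit that left out a rat, and Bc1, Slc17a7, Nov and Nptxr without the robust prior. All 24 genes were called with DESeq2's size factors, with library size alone and by DESeq2's outlier rule. limma's variance of log2 CPM called 16 genes, all among the 24, and did not call Adcy1, Arc, Btg2, Nefm, Nr4a1, Ptgds, Serpini1 or Syt17. The common biological coefficient of variation was 10.3% to 12.5% when each rat was left out. Of the 24 genes, 7 were also called in EtOH rats. With the filter at a mean count of 10 there were 16 shared calls, without the robust prior 1, and 3 to 9 when a water rat was left out. These last alternatives were chosen after seeing the data.

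Without its most abundant member, the mean sum of a marker list was 7196 CPM for both projection classes, 856 for D1-type, 479 for D2-type, 191 for cholinergic, 221 for other interneuron, 168 for cortical-type (424 with Slc17a7), 109 for subcortical, 18.3 for monoamine, 371 for neuroblast, 7251 for astrocyte, 6140 for oligodendrocyte, 474 for precursor, 514 for microglia, 329.9 for endothelial, 165 for mural, 46.5 for fibroblast, 37.9 for ependymal, 11.2 for choroid plexus and 2.84 for blood markers. With the 20 most abundant genes left out of the total, every CPM and every list sum rose by a like factor. The rise exceeded 1 SD only for the marker lists with the smallest coefficients of variation. Their sums were then 9506 CPM for astrocytes, 781 for oligodendrocyte precursors, 449.8 for endothelial cells and 247 for mural cells. The microglia sum rose as well, from 735 to 778 CPM, which was within 1 SD. Of 251 named genes, the mean CPM moved by more than 1 SD for 29 with those 20 genes left out of the total and for 0 with TMM scaling. The 29 are genes whose SD was smaller than that common rise. Leaving out 1 of 5 values cannot move a mean by as much as 1 SD, so the 0 found for that setting was fixed in advance. CPM per kilobase was not run, since no transcript lengths were used. No paired analysis was possible because a single group was described and replicate numbers pair nothing within it. With 5 rats, single-gene exact tests cannot reach 0.05, and reads per rat limit genes under about 1 CPM to a few reads.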

Other observations

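The list holds 456 microRNA gene symbols, of which 90 had at least 1 read in the 5 water rats. The libraries were made from polyA+ RNA and were not designed to capture mature microRNAs. No read in any of the 22 libraries was listed for 2853 symbols, and 3602 symbols had none in the 5 water rats.

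Some genes differed little among the 5 water rats. Pgk1, a glycolytic enzyme, had 298, 310, 303, 295 and 308 CPM in rats 1 to 5, at 0.0417 times the trend of genes of like count. Pdgfra lay at 0.0348 times the trend, Grik5 at 0.0790, Cx3cr1 at 0.0907 and Chgb at 0.0970. The test used looks for large spread only, so no p-value belongs to these values, and they were chosen after being seen.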
